A study of Mus musculus with 64 samples.

Results

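The 46 genes described here code for homeodomain transcription factors that lie outside the Hox clusters, and they were given as a list of names by family rather than picked for their values. They fall into 14 families of 5 homeodomain classes: 26 genes of the ANTP class (Nkx, Dlx, Msx, En, Gbx, Emx, Cdx and Meox), 8 of the LIM class (Lhx), 5 of the TALE class (Irx), 4 of the PRD class (Pitx and Otx) and 3 of the SINE class (Six2, Six3 and Six6). They lie on 14 autosomes and make up 46 of 34328 protein-coding and lncRNA gene regions. A gene region is the gene body with 2 kb on each side in mm10, and its value is the percent of its bases covered by peaks. No pair of the 46 regions overlapped, although 5 pairs of genes lie within 200 kb of each other, the closest being Dlx1 and Dlx2 with a gap of 9.43 kb.

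CUT&RUN, in which an antibody brings a nuclease to its target so that the surrounding DNA is cut free, was carried out on CD23+ B cells from the spleens of female F1 mus x cast mice. Their mothers were C57BL/6 mice heterozygous for an Xist deletion, their fathers were castaneus mice, and the labels used here do not state the ages of the animals. Cells were unstimulated (0 h) or cultured with 1 µM CpG, an agonist of Toll-like receptor 9, for 12 or 24 h. The cross and the sex are shared by all 3 times. For 0, 12 and 24 h in turn, there were 3, 3 and 3 libraries of Suz12, 3, 3 and 4 of H3K27me3, 3, 3 and 3 of Ring1B, 4, 3 and 5 of H2AK119Ub, 4, 4 and 4 of H3K9me3, and 3, 3 and 3 of H3K27ac. The labels call the replicates biological and do not tie them to animals, so the tests measure the spread between these libraries. Only reads that could be placed on the Cast allele went into the peak lists, so each autosomal gene is seen on its paternal copy only, and a base far from any difference between the parental genomes cannot be seen. These are profiles of many cells together, and a mark on more cells cannot be told apart from more of the mark per cell.

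Homeobox genes of these families set the identity of embryonic territories, such as forebrain, heart, gut, limb and kidney, and most are silent in blood cells. Polycomb repressive complex 2, of which Suz12 is a core subunit, methylates a lysine of histone H3 to give H3K27me3. Polycomb repressive complex 1, whose catalytic subunit is Ring1B, attaches ubiquitin to a lysine near the end of histone H2A to give H2AK119Ub. Both complexes are known to be concentrated at CpG-rich promoters of developmental genes. H3K9me3 marks another kind of silent chromatin, and H3K27ac marks active promoters and enhancers.

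The promoter sequences of 4 members show the range of starting material, and these 4 were chosen after the values were seen. Each runs from 250 bases before to 50 bases after a RefSeq start site listed for the gene in GRCm38.p6, the assembly of mm10, with every CG dinucleotide in capitals. The Nkx2-9 window lies inside the gene, whose 5' end is at position 56613569. Nkx2-3, a gene for spleen and gut mesenchyme (chr19:43612075-43612374, plus strand), is shown because its window lay in peaks of Suz12, H3K27me3, Ring1B and H2AK119Ub in every library. Msx1, a gene for teeth and face (chr5:37824536-37824835, minus strand), had Suz12 and Ring1B peaks on this window in all 3 libraries at 24 h and in no earlier library. Nkx2-9, a gene for the ventral neural tube (chr12:56613235-56613534, minus strand), had H3K27me3 on the window in every library and H2AK119Ub in none. Lhx8, a gene for basal forebrain neurons and oocytes (chr3:154330511-154330810, minus strand), had no peak of any antibody in its gene region. The windows hold 15, 29, 15 and 4 CG dinucleotides in this order.
Nkx2-3: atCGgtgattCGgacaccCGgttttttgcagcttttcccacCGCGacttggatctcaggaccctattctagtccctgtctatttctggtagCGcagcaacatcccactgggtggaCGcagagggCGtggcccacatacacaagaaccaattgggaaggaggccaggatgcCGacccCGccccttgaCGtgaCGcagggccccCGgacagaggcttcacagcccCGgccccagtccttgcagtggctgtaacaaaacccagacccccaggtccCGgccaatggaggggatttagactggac
Msx1: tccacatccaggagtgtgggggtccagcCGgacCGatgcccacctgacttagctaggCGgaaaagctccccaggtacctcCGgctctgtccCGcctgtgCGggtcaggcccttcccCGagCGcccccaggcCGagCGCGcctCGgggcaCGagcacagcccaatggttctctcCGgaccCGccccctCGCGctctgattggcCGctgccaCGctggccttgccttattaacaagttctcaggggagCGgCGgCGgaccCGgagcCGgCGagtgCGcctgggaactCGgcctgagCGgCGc
Nkx2-9: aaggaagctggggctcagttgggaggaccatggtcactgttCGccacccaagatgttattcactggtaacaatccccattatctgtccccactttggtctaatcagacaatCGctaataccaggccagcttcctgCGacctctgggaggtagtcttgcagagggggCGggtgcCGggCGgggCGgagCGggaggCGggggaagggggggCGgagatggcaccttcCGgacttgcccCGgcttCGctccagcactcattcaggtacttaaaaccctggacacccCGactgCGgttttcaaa
Lhx8: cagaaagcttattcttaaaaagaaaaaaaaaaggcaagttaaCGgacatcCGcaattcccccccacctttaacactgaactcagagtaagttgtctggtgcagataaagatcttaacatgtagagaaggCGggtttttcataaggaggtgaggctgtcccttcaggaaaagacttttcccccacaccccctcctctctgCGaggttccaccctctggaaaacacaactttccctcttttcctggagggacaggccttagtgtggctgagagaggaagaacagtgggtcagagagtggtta

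The lists themselves differ between times in ways that bear on every value below. For the 4 histone marks the number of peaks was lowest at 0 h: lists held 2771 to 7561, 10056 to 16525 and 20452 to 26764 H3K27me3 peaks at 0, 12 and 24 h, and 2098 to 4346, 12330 to 18834 and 10963 to 24632 H2AK119Ub peaks at those times. The lists of the subunits, Suz12 and Ring1B, were cut at a set top fraction, so their length (18141 to 29273 peaks) does not measure occupancy. Sequencing depth is unknown. The labelled cell type could be checked against its markers: all 12 B cell genes had H3K27ac peaks, with mean coverage of 54.2%, 85.9% and 80.2% at 0, 12 and 24 h, and none of the 12 had an H3K27me3 peak in any library. Mean H3K27ac coverage of the T cell, myeloid, NK cell, plasma cell, erythroid and stromal lists lay between 0.0% and 15.5% at every time, and 7 of 10 T cell and 6 of 10 myeloid genes had no H3K27ac peak in any library.

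Mean coverage of the homeobox genes by both Polycomb subunits and both Polycomb marks lay far above that of the average gene region at every time. Averaged over the 46 genes and then over libraries, Suz12 covered 41.9% ± 10.5, 39.2% ± 8.66 and 62.7% ± 3.80 of a region at 0, 12 and 24 h (SD over libraries), against 6.56%, 4.59% and 5.17% over all gene regions. H3K27me3 covered 49.6% ± 25.1, 72.7% ± 3.86 and 87.4% ± 0.839, against 4.42%, 7.91% and 16.3% over all regions. Taken within each library and then averaged over libraries, the ratio of the homeobox mean to the mean of all regions was between 5.45 and 12.0 for H3K27me3 and between 6.38 and 12.3 for Suz12, with the lowest H3K27me3 ratio and the highest Suz12 ratio at 24 h. Ring1B covered 26.3% ± 3.47, 22.0% ± 6.31 and 43.1% ± 0.668, against 5.43%, 5.69% and 6.94%. H2AK119Ub covered 29.5% ± 3.99, 45.7% ± 3.32 and 58.6% ± 10.4, against 3.13%, 10.8% and 13.4%. In every library of these 4 antibodies the homeobox mean lay above the mean of all regions, by 2.75 times at the least, in Ring1B replicate 1 at 12 h. The H3K27me3 libraries at 0 h were uneven, with homeobox means of 28.4%, 43.1% and 77.2%.

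**Figure D1:**
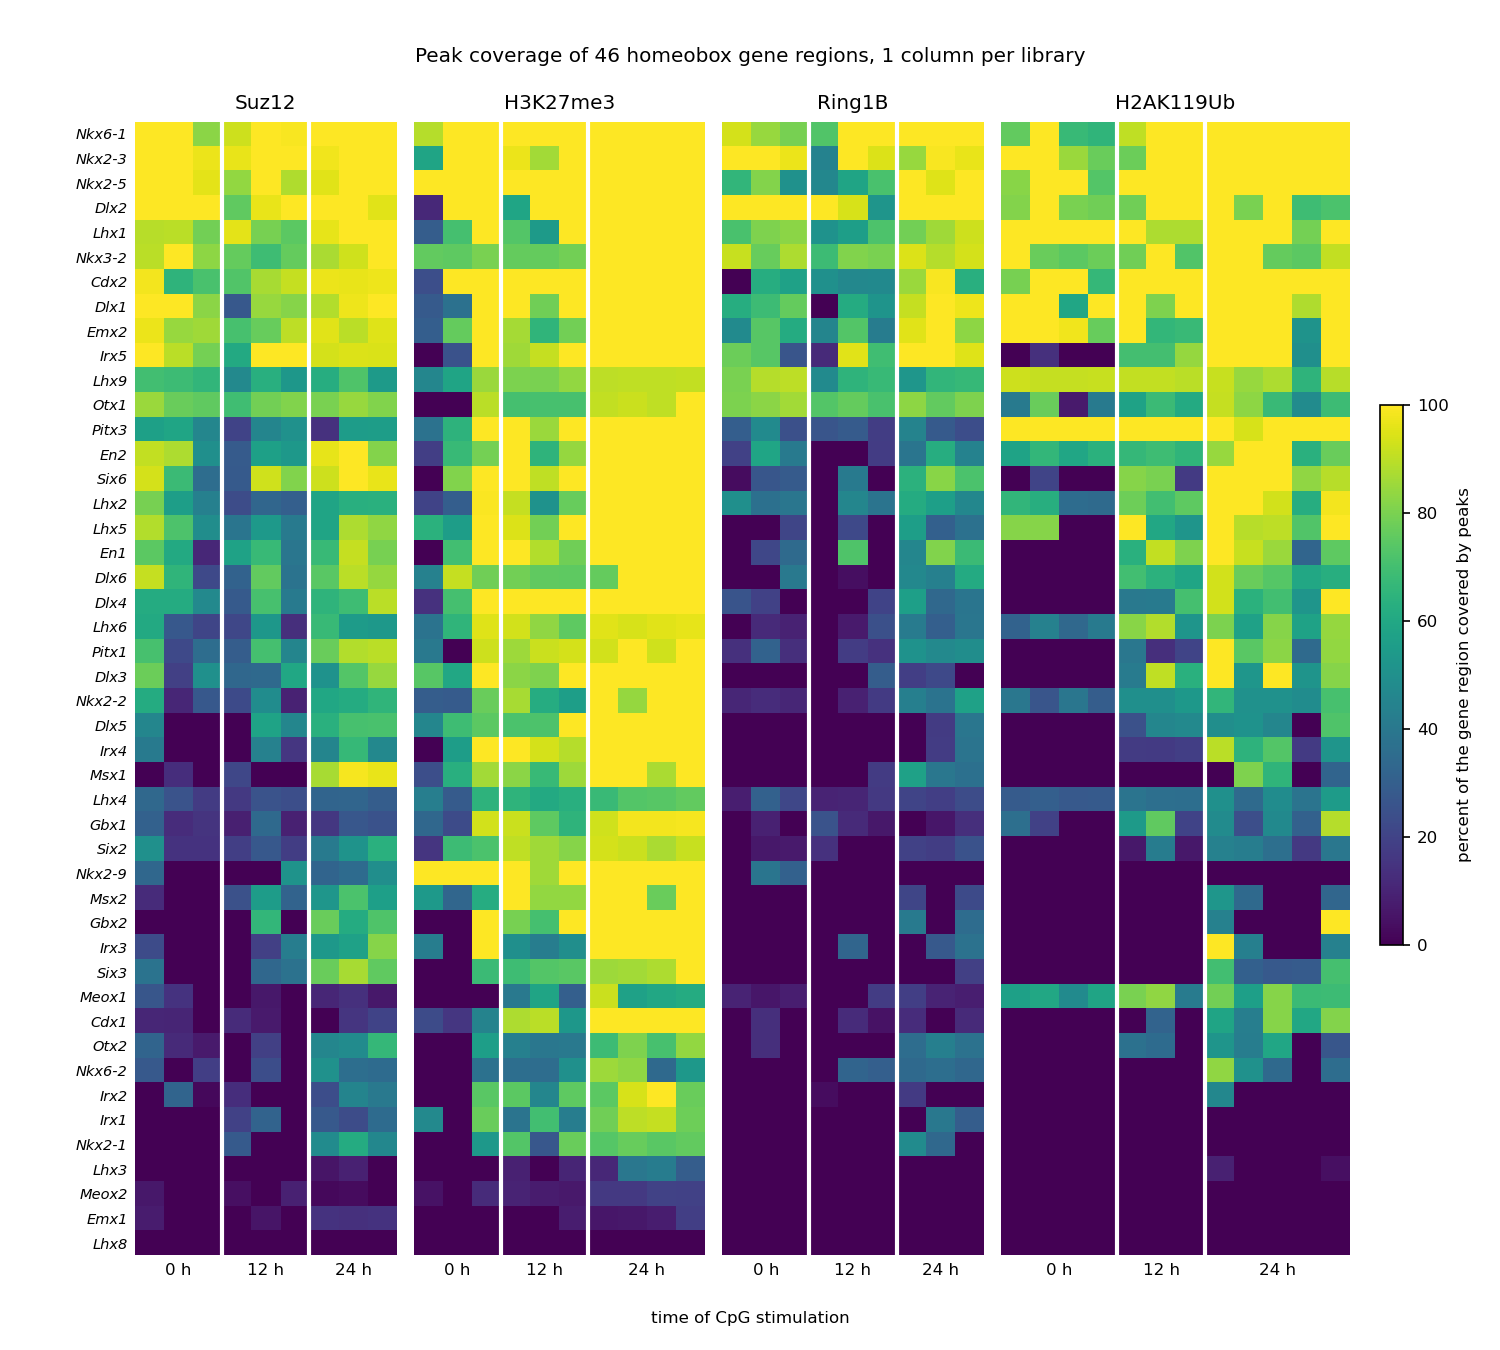
Percent of each of the 46 gene regions covered by peaks (colour scale, 0 to 100), with 1 row per gene and 1 column per library, grouped by antibody and by hours of CpG stimulation, and with genes in the order of their mean over the 4 antibodies. The upper rows are covered by all 4 antibodies at all times, Lhx8 at the bottom is at 0 in every library, and 24 of the 46 genes have no H2AK119Ub peak at 0 h.

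**Figure D2:**
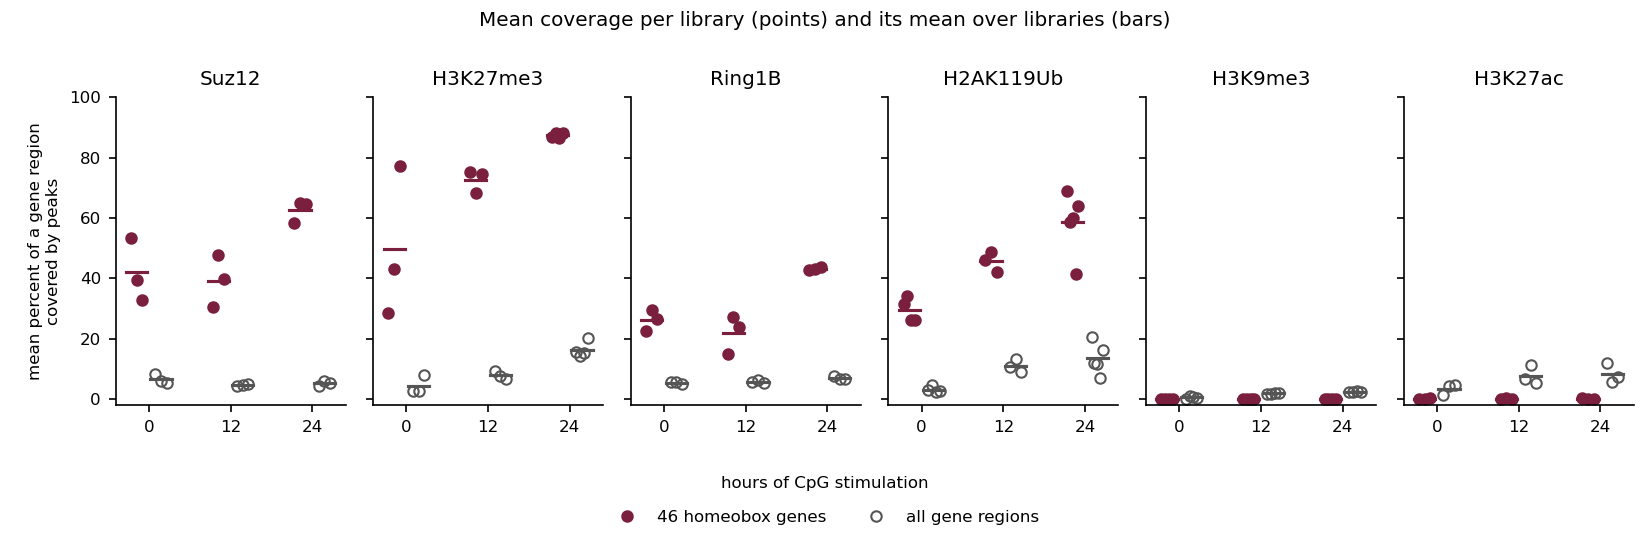
Mean percent of a gene region covered by peaks in each library (vertical axis) at 0, 12 and 24 h of CpG stimulation (horizontal axis), for the 46 homeobox genes (filled points) and for all gene regions (open points), with bars for the mean over libraries. The homeobox points lie above the open points for Suz12, H3K27me3, Ring1B and H2AK119Ub and at or near 0 for H3K9me3 and H3K27ac.

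Suz12 lay on most of the homeobox genes before stimulation, and several genes that it barely touched at 0 h had a large part of their region covered at 24 h. A Suz12 peak was present in at least 2 libraries on 32 of 46 genes at 0 h, 35 at 12 h and 45 at 24 h, against 41.1%, 31.3% and 35.6% of all regions. Nkx2-3, Nkx6-1, Dlx2, Nkx2-5, Irx5 and Lhx1 had the highest mean coverage over all libraries, and their means lay between 83.4% and 100% at every time. Msx1 had 0%, 13.1% and 0% coverage at 0 h, 21.3%, 0% and 0% at 12 h, and 86.8%, 98.7% and 96.7% at 24 h. The 24 h libraries of Msx1 stood apart from all 6 earlier ones, and the mean difference between 24 and 0 h was 89.7 points with a standard error (SE) of 10.2. Nkx2-1, the thyroid, lung and forebrain factor, had no Suz12 peak at 0 h, 28.2%, 0% and 0% at 12 h, and 48.1%, 61.5% and 46.1% at 24 h. Msx2, a relative of Msx1 in skull and limb, had 12.5%, 0% and 0% at 0 h, 24.7%, 55.1% and 31.7% at 12 h, and 52.5%, 71.8% and 56.6% at 24 h. Every 24 h library of Nkx2-1 lay above the 6 earlier ones, whereas the 12 and 24 h libraries of Msx2 overlapped. Six3 and Otx2, factors of the anterior head, and Irx3 had mean coverage of 80.0%, 53.5% and 64.1% at 24 h, against 12.8%, 17.1% and 7.59% at 0 h.

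By limma's moderated F-test over the 3 times, with Benjamini-Hochberg adjustment over 18049 genes, no homeobox gene passed the threshold of 0.05 for Suz12, and 0.0% of all tested genes passed it. The smallest adjusted p among the members was 0.0589, for Msx1, and 44 of the 46 had been tested, because Lhx3 and Lhx8 had peaks in too few libraries. At an unadjusted p under 0.05 there were 15 members, against 8.77% of all tested genes. Other settings called between 0 and 4 members. The 4 came with stricter lists, where 197 of 12547 tested genes were called. Msx1 was the one member called when the flanks were left out, where 7 of 16079 tested genes were. The mean was higher at 24 h than at 0 h in 39 of 46 genes and lower in 6, namely Nkx2-5, Dlx2, Meox1, Meox2, Pitx3 and Lhx9. Over the tested genes the median difference between 24 and 0 h was 18.4 points for the 44 members and -1.22 points for all.

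Mean H3K27me3 coverage of the homeobox genes was higher at each later time, and at 24 h 34 of 46 genes were covered over at least 90% of their region. A peak was present in at least 2 libraries on 35, 44 and 45 of 46 genes at 0, 12 and 24 h, against 11.8%, 22.2% and 37.9% of all regions. The number of genes with mean coverage of 100% was 2 at 0 h, 4 at 12 h and 23 at 24 h. By the limma F-test, 15 of 46 genes changed, where 56.8% of 11914 tested genes did so. All 15 were higher at 24 h than at 0 h, as were 56.5% of all tested genes. At 12 h, 5 members were higher than at 0 h, against 8.41% of tested genes, and 7 were higher at 24 h than at 12 h, against 46.4%. Of the 45 members tested, 33.3% were called, a smaller share than among all tested genes. Over all regions, tested or not, the order was reversed, with 32.6% of the 46 members called and 19.7% of all gene regions. The comparison thus depends on the filter, which genes with peaks at 24 h alone could pass. A region at 100% at 0 h, such as Nkx2-5, could not rise. Over tested genes the median difference between 24 and 0 h was 39.2 points for 45 members and 28.9 points for all.

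Meox1 and Cdx1 had the smallest p-values for H3K27me3. Meox1, a somite gene, had no H3K27me3 peak in the 3 libraries at 0 h, 40.4%, 58.4% and 30.3% coverage at 12 h, and 92.1%, 57.1%, 60.1% and 61.7% at 24 h. Its 12 h libraries all lay above those at 0 h, and the difference between 24 and 0 h was 67.7 ± 10.3 points (SE; adjusted p = 0.00251 by limma). Cdx1, an intestinal and trunk factor, had 23.0%, 15.7% and 44.7% at 0 h, 87.9%, 89.8% and 53.0% at 12 h, and 100% in all 4 libraries at 24 h, a difference of 72.2 ± 11.3 points between 24 and 0 h (adjusted p = 0.00279 by limma). The 3 times of Cdx1 did not overlap. Lhx3, a pituitary and motor neuron gene, had no peak at 0 h, 9.27%, 0% and 10.5% at 12 h, and 11.1%, 39.7%, 42.0% and 29.5% at 24 h. Msx2 had 53.9%, 33.2% and 62.1% at 0 h, 100%, 83.8% and 84.0% at 12 h, and 99.9%, 100%, 77.0% and 100% at 24 h, with later libraries all above those at 0 h. Otx2 and Six3 each had a peak in 1 of 3 libraries at 0 h, of 55.9% and 68.1%, and lay between 68.6% and 83.7% (Otx2) and between 85.2% and 100% (Six3) at 24 h. The other called genes were Nkx2-1, Nkx2-2, Nkx3-2, Nkx6-2, Dlx5, Emx1, Meox2, Irx2 and Irx3, with differences between 9.80 points (Emx1) and 61.7 points (Irx2). Nkx2-5, the cardiac factor, Nkx6-1, Nkx2-9, Nkx2-3, Cdx2 and Dlx3 had the highest mean coverage and were not called: Nkx2-5 was at 100% in all 10 libraries, and Nkx2-9 in 9 of them. Lhx8 was the gene with no H3K27me3 peak in any library.

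The count of 15 moved with single libraries. It was 37 without 0 h replicate 3, whose coverage was the highest at that time, where 7734 of 11866 tested genes were called. The member share was then above that of tested genes, the reverse of the full data. The count was 5 and 6 without 0 h replicates 1 and 2, where 4252 of 11905 and 4163 of 11909 tested genes were called. It was 8, 9, 8 and 7 when 24 h replicates 1 to 4 were left out, all of them among the 15. Over all tested genes, 5703 of 11024, 6320 of 11297, 5874 of 11189 and 5255 of 10754 were then called. Otx2 and Six3 were no longer called without 0 h replicate 1 or 2. When each library was divided by its covered share of the autosomes, 9 genes were called, where 19.8% of all tested genes were, namely Meox1, which was higher at 24 h, and 8 genes that were lower, and the difference between 24 and 0 h had a median of -17.1 for the 45 tested members and 0.926 for all tested genes, in multiples of the autosomal share. A region at 100% in every library, such as Nkx2-5, is lower at 24 h on that scale by construction. With the same number of peaks taken from each list, 3 genes were called. With peaks below a common lowest signal left out, the same 15 were called.

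Most bases under Suz12 on the homeobox genes, counted in at least 2 libraries, also lay under H3K27me3, and nearly all at 12 and 24 h. The mark extended beyond the subunit. Of the bases covered by Suz12 in at least 2 libraries within the 46 regions (742 kb in all), 74.5%, 97.9% and 98.5% were also covered by H3K27me3 in at least 2 libraries at 0, 12 and 24 h, against 23.6%, 31.4% and 64.8% over all gene regions. Of the H3K27me3 bases in the 46 regions, 58.6%, 40.2% and 61.3% lay under Suz12, against 22.1%, 6.92% and 6.80% over all regions. H3K27me3 covered 41.0%, 66.2% and 79.2% of the homeobox bases at those times, so the room for such overlap differed between times. Counting a feature as present where at least 2 libraries had a peak, Nkx6-2, Meox1, Otx1, Otx2 and Irx2 had Suz12 without H3K27me3 at 0 h, and all of these but Meox1 had H3K27me3 in 1 library. Nkx2-9, Dlx5, Msx1, Msx2, Meox2, Irx1, Irx3 and Irx4 had H3K27me3 without Suz12 at that time. At 12 h there was no gene with Suz12 alone, and 9 had H3K27me3 alone. At 24 h the same 45 genes had both. Nkx2-9 had 100% H3K27me3 at 0 h beside Suz12 coverage of 33.4%, 0% and 0%. Otx1 was the other way round, with mean coverage of 79.1% by Suz12 and 29.9% by H3K27me3 at 0 h. Across the 46 genes Spearman's rho between mean Suz12 and mean H3K27me3 coverage was 0.681, 0.682 and 0.660 at 0, 12 and 24 h, against 0.294, 0.240 and 0.354 across all regions. The genes of one time share libraries and are not independent, so these are descriptions.

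**Figure D3:**
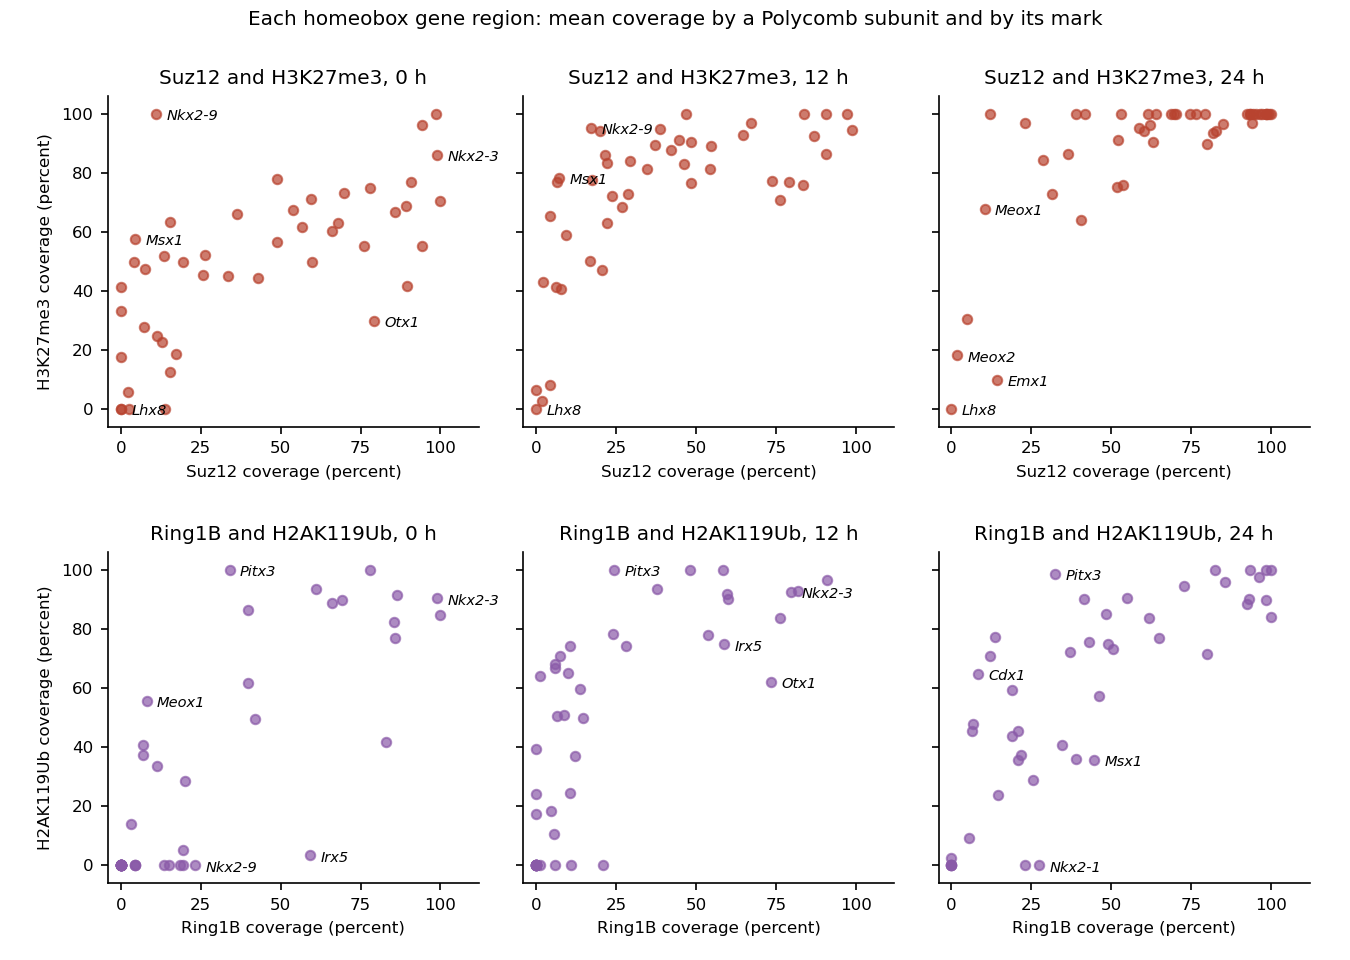
Each of the 46 genes as a point, with mean percent coverage of its region by Suz12 or Ring1B (horizontal axes) and by H3K27me3 or H2AK119Ub (vertical axes) at 0, 12 and 24 h, and with some genes named. At 0 h Nkx2-9 has full H3K27me3 with little Suz12, and a row of genes with up to 59.3% Ring1B (Irx5) lies at or near 0 for H2AK119Ub.

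Ring1B was on fewer of the homeobox genes than Suz12 at each time, and its mean coverage over the 46 genes was lower, although single genes such as Lhx9 at 0 h had more Ring1B than Suz12. A Ring1B peak was present in at least 2 libraries on 25, 21 and 39 of 46 genes at 0, 12 and 24 h, against 36.4%, 34.5% and 40.4% of all regions. At 12 h the share of homeobox genes, 45.7%, was thus not far above that of all regions. Dlx2, a gene of forebrain interneurons, Nkx6-1, Nkx2-3, Nkx3-2, Otx1 and Lhx1 had the highest means, between 59.8% and 100% at every time. Emx1, Meox2, Lhx3 and Lhx8 had no Ring1B peak in any library. Otx2 had 0%, 13.4% and 0% coverage at 0 h, none at 12 h, and 35.7%, 43.3% and 37.5% at 24 h. Msx1 had none at 0 h, 0%, 0% and 17.6% at 12 h, and 57.2%, 39.5% and 36.9% at 24 h. In both genes every 24 h library lay above every earlier one. Six6, an eye and pituitary gene, had 3.17%, 26.9% and 28.7% at 0 h, 0%, 41.1% and 0% at 12 h, and 64.4%, 82.3% and 71.8% at 24 h. Nkx2-2, Dlx6 and Pitx1 had means of 46.1%, 50.4% and 49.0% at 24 h, against 11.3%, 13.4% and 19.5% at 0 h. Nkx2-9 went against this pattern, with 0%, 38.8% and 31.0% at 0 h and no Ring1B peak at 12 or 24 h.

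No homeobox gene passed the limma F-test for Ring1B, where 0.085% of 17641 tested genes (15 genes) did. The smallest adjusted p among the 33 tested members was 0.0605, for Otx2. At an unadjusted p under 0.05 there were 16 members, against 8.73% of all tested genes. Other settings called between 0 and 6, and the 6 came with stricter lists, where 235 of 12436 tested genes were called. The mean was higher at 24 h than at 0 h in 36 of 46 genes and lower in Nkx2-3, Nkx2-9, Pitx3, Otx1 and Lhx9. Ring1B replicate 1 at 12 h had the shortest list, and its homeobox mean of 15.0% was the lowest of the 9 libraries.

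H2AK119Ub divided the homeobox genes into those that carried it before stimulation and those that did not. In unstimulated cells 18 genes had an H2AK119Ub peak in all 4 libraries, 24 had none in any library, and 4 (Gbx1, Lhx5, Six6 and Irx5) had one in some libraries. A peak in at least 2 libraries was present on 20, 31 and 39 of 46 genes at 0, 12 and 24 h, against 9.53%, 29.2% and 42.5% of all regions. There were 4, 3 and 5 libraries at these times, so the rule was easiest to meet at 24 h. By the limma F-test 15 of 46 genes changed, against 33.2% of 13845 tested genes, and all 15 were higher at 24 h than at 0 h, against 31.0% of tested genes. At 12 h, 8 were higher than at 0 h, against 22.0%, and 6 were higher at 24 h than at 12 h, against 10.2%. Of the 37 members tested, 40.5% were called, a share not far from that of all tested genes. Over all regions, tested or not, the shares called were 32.6% of the 46 members and 13.4% of all gene regions.

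Dlx6, a craniofacial and limb gene, had no H2AK119Ub in the 4 libraries at 0 h, 69.7%, 64.1% and 58.9% coverage at 12 h, and 93.3%, 77.1%, 73.5%, 60.1% and 62.6% at 24 h. The difference between 24 and 0 h was 73.3 ± 7.86 points (SE; adjusted p = 0.000171 by limma), and the 12 and 24 h libraries overlapped. Irx5, active in heart and limb, had 0%, 13.8%, 0% and 0% at 0 h, 70.3%, 70.0% and 84.4% at 12 h, and 100%, 100%, 100%, 49.8% and 100% at 24 h. Six6 had 0%, 20.6%, 0% and 0% at 0 h, 81.9%, 79.9% and 17.0% at 12 h, and 83.4% to 100% in the 5 libraries at 24 h. For both, 1 library at 0 h had a peak over a small part of the region and the other 3 had none. En1, the midbrain and hindbrain factor, and Dlx4 had none at 0 h. En1 lay between 63.6% and 90.7% at 12 h and between 32.7% and 100% at 24 h, and Dlx4 between 40.5% and 70.5% at 12 h and between 52.3% and 100% at 24 h. Cdx1 was later, with none at 0 h, 0%, 32.0% and 0% at 12 h, and 58.4%, 42.9%, 81.8%, 59.9% and 81.6% at 24 h. Nkx6-2, Dlx3, Dlx5, Pitx1, Lhx2, Lhx6, Six2, Six3 and Irx4 were the other genes called, with differences between 34.8 points (Lhx6) and 77.2 points (Dlx3). Pitx3, Nkx2-5, Lhx1, Cdx2, Nkx2-3 and Dlx1 had the highest mean coverage, between 86.5% and 100% at every time, and were not called. No H2AK119Ub peak was found at any time on Nkx2-1, Nkx2-9, Emx1, Meox2, Lhx8 and Irx1.

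H2AK119Ub lists kept peaks down to between 9 and 10 signal steps at 0 h, between 5 and 6 at 12 h and between 4 and 6 at 24 h, and with a common lowest signal the same 15 genes were called. Scaled by the autosomal covered share, 27 genes were called, 13 of them higher at 24 h and 14 lower. On that scale 38.8% of all tested genes were called. With equal numbers of peaks 1 of the 46 genes (Dlx4) was called, where 690 of 3994 tested genes were. Of the 46 genes, 4 (Cdx1, Dlx5, Nkx6-2 and Six3) were called for both marks, 11 for H3K27me3 alone, 11 for H2AK119Ub alone and 20 for neither. These are 8.70%, 23.9%, 23.9% and 43.5% of the 46 genes, against 4.79%, 14.9%, 8.60% and 71.7% of all gene regions, most of which had too few peaks to be tested for either mark taken singly. Nkx6-2 and Six3 had H2AK119Ub peaks at 24 h only, and so passed the filter through the time at which they were high. Cdx1 for H2AK119Ub, and Emx1 and Lhx3 for H3K27me3, also needed their 24 h libraries to pass. Dlx3, Dlx4, Dlx5, Dlx6, En1, Pitx1, Six2 and Irx4 had no H2AK119Ub peak at 0 h, and Meox1 had no H3K27me3 peak then. These genes passed the filter only through their 12 and 24 h libraries, in which they were higher. None of the calls named here for these marks is thus independent of the filter.

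The genes without H2AK119Ub at 0 h had lower coverage by the other features too. Since the split uses H2AK119Ub at 0 h, the values of the other antibodies are given as a description. The 18 genes with the mark in all 4 libraries had median Suz12 coverage of 78.6%, 69.3% and 92.9% at 0, 12 and 24 h, and the 24 genes without it had 11.3%, 18.5% and 53.2%. Median Ring1B coverage was 63.6%, 50.9% and 81.1% in the 18 genes and 0.0%, 0.0% and 19.9% in the 24. Median H3K27me3 coverage was closer, at 66.4%, 82.1% and 100% in the 18 genes and 42.8%, 76.7% and 94.2% in the 24. H3K27me3 was thus present on 15 of the 24 genes in at least 2 libraries at 0 h while H2AK119Ub was on none. Of the 24 genes, 10 had Suz12 and 5 had Ring1B in at least 2 libraries at 0 h. By 24 h, 17 of the 24 had H2AK119Ub, 17 had Ring1B, 23 had Suz12 and 23 had H3K27me3 in at least 2 libraries.

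**Figure D4:**
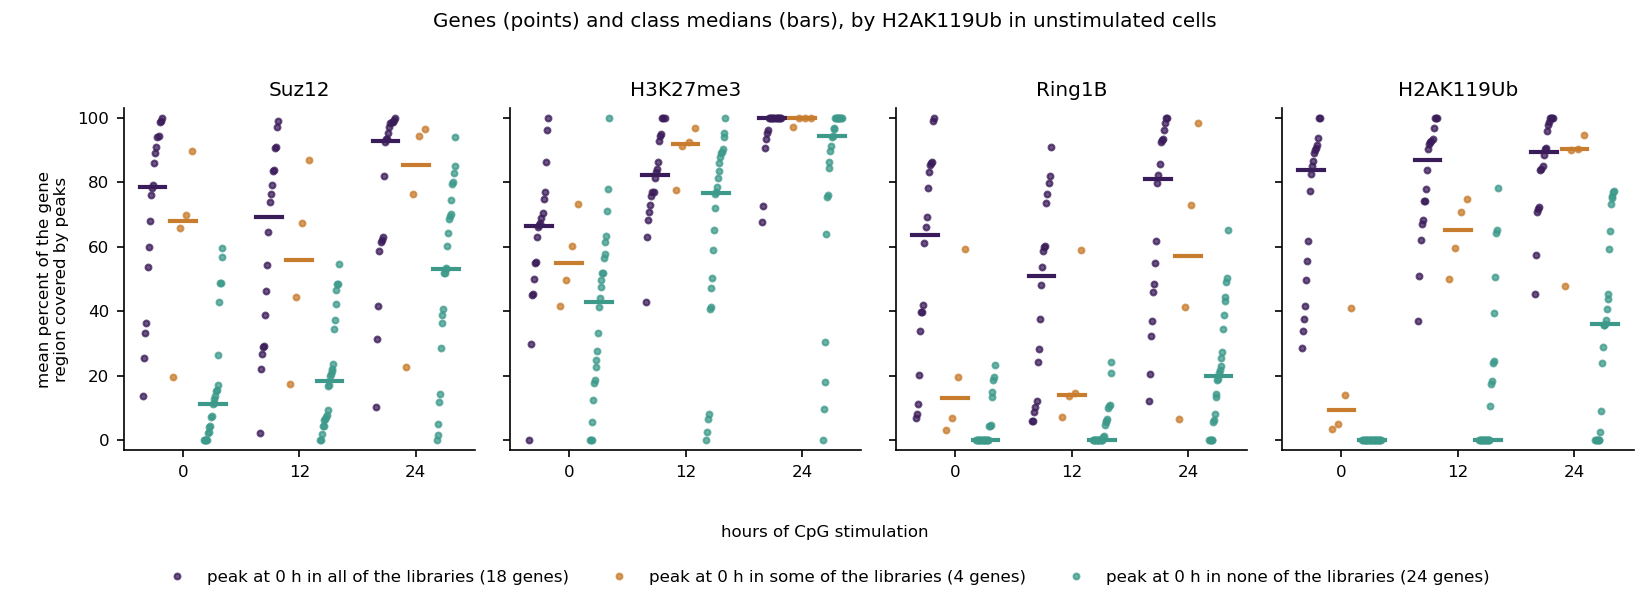
Mean percent of each gene region covered by peaks (vertical axes) at 0, 12 and 24 h, with genes as points and class medians as bars, for genes with an H2AK119Ub peak at 0 h in all (18 genes), some (4 genes) or none (24 genes) of the 4 libraries. The classes lie far apart for Ring1B and closer together for H3K27me3, whose medians at 24 h are 100%, 100% and 94.2%.

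Ring1B peaks lay within H2AK119Ub in most homeobox genes that had either. Of the Ring1B bases in the 46 regions, 81.8%, 93.0% and 97.2% were under H2AK119Ub at 0, 12 and 24 h, against 24.6%, 31.4% and 65.3% over all regions. In the other direction 56.7%, 32.9% and 54.4% of H2AK119Ub bases lay under Ring1B, against 18.9%, 8.48% and 14.6%. By presence in at least 2 libraries, 7 genes had Ring1B without H2AK119Ub at 0 h, namely Nkx2-9, Dlx4, En1, Pitx1, Six2, Six6 and Irx5, of which Six6 and Irx5 had H2AK119Ub in 1 library. Of these, 6 had H2AK119Ub at 12 h and at 24 h, and Nkx2-9 had none. Irx5 had 77.6%, 74.1% and 26.3% Ring1B coverage at 0 h. At 12 h the mark was on more genes than the subunit, with 12 genes that had H2AK119Ub but not Ring1B in at least 2 libraries, among them Dlx3, Dlx4, Dlx5, Dlx6 and En1. At 24 h 37 genes had both, Nkx2-1 and Irx1 had Ring1B alone, and Lhx3 and Six3 had H2AK119Ub alone. Spearman's rho across the 46 genes was 0.825, 0.817 and 0.793, against 0.280, 0.325 and 0.552 across all regions, again as a description of points that share libraries.

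Taking the 4 Polycomb features together, 16 of 46 genes had all of them in at least 2 libraries each at 0 h and 37 did so at 24 h, against 3.93% and 13.0% of all regions. Both marks had more libraries at 24 h than at 0 h, which makes that rule easier to meet. The 16 were Nkx2-2, Nkx2-3, Nkx2-5, Nkx3-2, Nkx6-1, Dlx1, Dlx2, En2, Emx2, Cdx2, Pitx3, Lhx1, Lhx2, Lhx4, Lhx6 and Lhx9. At 0 h 6 genes had none of the 4 (Nkx2-1, Gbx2, Emx1, Lhx3, Lhx8 and Six3), and at 24 h only Lhx8 did, against 33.8% of all regions. The genes with 2 features at 24 h, Nkx2-9, Emx1, Meox2 and Irx2, had Suz12 and H3K27me3 and lacked Ring1B and H2AK119Ub. Meox2, the longest of the 46 genes at 70995 bases, had at most 18.2% mean coverage by any antibody.

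H3K9me3 and H3K27ac were all but absent. No homeobox gene had an H3K9me3 peak in any of the 12 libraries, so none could be tested, whereas 52.3% of the 2332 tested genes changed with time. H3K27ac peaks touched Meox1 alone, in 1 library at each time, with coverage of 15.4%, 17.9% and 13.1%. Over all regions, 11.8%, 23.2% and 25.4% had H3K27ac in at least 2 libraries at 0, 12 and 24 h. Meox1 was the one member tested for H3K27ac and did not pass (adjusted p = 0.980 by limma, unadjusted p = 0.968), where 1.46% of 9342 tested genes passed. Meox1 also stood apart in its Polycomb features, with mean H2AK119Ub of 55.6%, 68.2% and 70.8% at 0, 12 and 24 h, no H3K27me3 at 0 h, and Suz12 and Ring1B means of at most 13.9% at any time.

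Families differed in how their members were covered. All 6 Dlx genes had H3K27me3 at 0 h, with a family mean of 66.6%, 87.4% and 99.0% over the 3 times. Dlx1 and Dlx2, which are neighbours, had H2AK119Ub of 89.8% and 84.9% at 0 h, while Dlx3, Dlx4, Dlx5 and Dlx6 had none, and these 4 were called higher at 24 h. Scaled by the autosomal covered share, all 6 Dlx genes were called for H2AK119Ub, with Dlx1 and Dlx2 lower at 24 h than at 0 h and the other 4 higher. Among Six2, Six3 and Six6, the family means were 1.71%, 26.0% and 58.6% for H2AK119Ub, and all 3 were called. The 5 Irx genes had 41.4%, 69.8% and 94.2% for H3K27me3 and 0.689%, 18.5% and 39.2% for H2AK119Ub, with Irx2 and Irx3 called for the first mark and Irx4 and Irx5 for the second. The 8 Lhx genes spanned the whole range, with Lhx1 and Lhx9 covered by all 4 features at every time, Lhx3 low, and Lhx8 empty. The 2 Msx genes had no H2AK119Ub at 0 or 12 h and family means of 4.27%, 22.1% and 77.2% for Suz12. The Meox genes had the lowest Suz12 family means at 24 h, at 6.02%.

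The H3K27me3 and Suz12 peaks on homeobox genes at 24 h were among the strongest of their lists. Ranked by highest signal within its own list, the median peak touching a homeobox region stood at percentile 95.6 to 98.0 for H3K27me3 in the 24 h libraries and 96.1 to 97.9 for Suz12. At 0 h these ranges were 83.1 to 92.0 and 79.5 to 91.5. For H2AK119Ub and Ring1B at 24 h they were 90.2 to 95.4 and 81.9 to 83.4, and Ring1B replicate 3 at 12 h stood at 74.7. Ranks come from lists of different length, so the ranges cannot be compared between times. H3K27me3 peaks on these genes were wide at 24 h, with a median width of 23.4 to 37.3 kb per library, against 7.27 to 8.62 kb over the whole lists, and the widest reached 156 kb. Suz12 peaks on the same genes had a median width of 2.57 to 4.58 kb at 24 h.

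The promoters of the homeobox genes were mostly rich in CG dinucleotides, with exceptions such as the printed Lhx8. Promoter windows of 300 bases were matched for 33 of the 46 genes in the RefSeq table. The first window listed was used for each gene. For some genes, such as Nkx2-2, Lhx4, Six3 and Lhx9, that window lay several kilobases inside the gene. Their median was 20 CG dinucleotides (range 4 to 40), against 7 over 26794 windows, and 29 of 33 (87.9%) held at least 10, against 44.3% of all windows. At 24 h, 25 of the 33 windows (75.8%) lay in Suz12 peaks, 29 (87.9%) in H3K27me3, 19 (57.6%) in Ring1B and 21 (63.6%) in H2AK119Ub, each in at least 2 libraries and over at least 150 bases. Among all windows with at least 10 CG dinucleotides these shares were 25.8%, 28.0%, 42.4% and 42.0%. At 0 h the homeobox share for Suz12, 39.4%, was close to the 38.3% of CG-rich windows, and that for Ring1B, 21.2%, was below their 28.3%. For H3K27me3 and H2AK119Ub at 0 h the homeobox shares were 45.5% and 36.4%, against 9.61% and 8.61% of CG-rich windows. Emx1 departed from this, with 37 CG dinucleotides and no Suz12 or Ring1B peak on its window in any library. The Lhx9 window had 6 and both in every library, but it does not describe the 5' end of that gene.

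Around the listed start sites at 24 h, each feature was on fewer genes 10 kb away than at the start, and H3K27me3 fell off least. At 24 h, 84.8% of gene and library pairs of the 33 genes had Suz12 at the highest point, 0.75 kb upstream of the start, and 18.2% and 41.4% did so 10 kb upstream and downstream. H3K27me3 was at 85.6% at the start and still at 63.6% and 83.3% at 10 kb on either side. Ring1B was highest 0.25 kb upstream, at 58.6%, with 9.09% and 20.2% at 10 kb upstream and downstream. H2AK119Ub at 24 h was at 55.8% at the start and highest, at 63.6%, 3.5 kb downstream, with 27.3% and 45.5% at 10 kb upstream and downstream. At 12 h it was at 38.4% at the start, with 26.3% and 48.5% at 10 kb upstream and downstream, so it was on more genes downstream. Over all genes Suz12 and Ring1B at 24 h were highest at the start itself, at 15.2% and 22.4%.

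**Figure D5:**
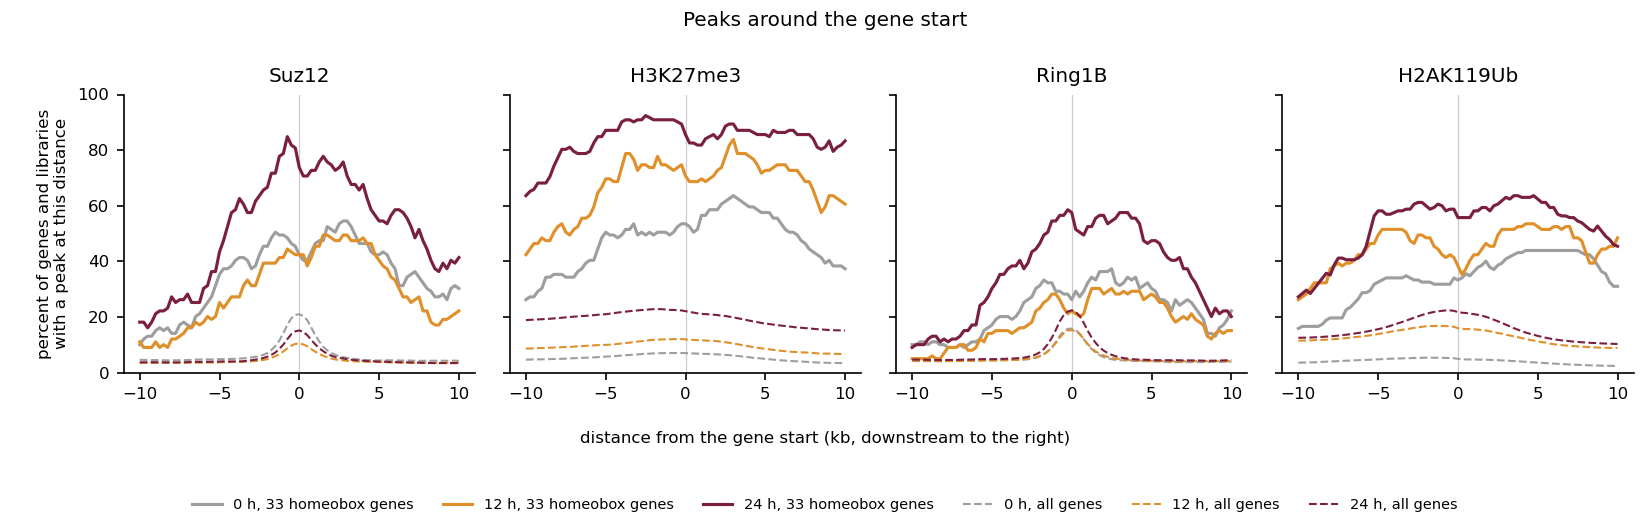
Percent of gene and library pairs with a peak (vertical axis) at each distance from the first RefSeq start site listed for a gene (horizontal axis, kb), for 33 homeobox genes (solid lines) and all genes (dashed lines) at 0, 12 and 24 h. For some genes this site lies inside the gene. Suz12 and Ring1B fall off within 10 kb of the start, and H3K27me3 at 24 h stays above 63% across the window.

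Other homeobox genes were set beside these 46. A further list of 61 non-Hox homeobox genes of development had mean H3K27me3 coverage of 51.1%, 63.6% and 78.8% and mean H2AK119Ub coverage of 37.0%, 53.1% and 58.7% at 0, 12 and 24 h. In this list 17 of 58 tested genes were higher at 24 h for H3K27me3, where 56.5% of all tested genes were, and 17 of 52 for H2AK119Ub, where 31.0% were, and 59 of the 61 had no H3K27ac peak in any library. Among its smallest p-values for H3K27me3 were those of Pax7, a muscle stem cell gene with 67.3% at 24 h against 9.98% at 0 h, and of Pou3f2. For H2AK119Ub they belonged to Mnx1, a motor neuron and pancreas gene with 98.4% at 24 h and none at 0 h, to Hmx1 and to Barhl1. The 17 homeobox genes in use in blood cells had mean H3K27me3 coverage of 1.85%, 2.89% and 5.70% and mean H3K27ac coverage of 8.81%, 21.6% and 23.4%. Within them Pbx3 and Pou2f2 were higher for H3K27me3 at 24 h, by 14.6 and 26.7 points, Meis1 had a difference of 8.75 points that did not pass (adjusted p = 0.0506 by limma), and Pou2f2 was the one gene called for H2AK119Ub, ahead of Hhex and Cux1, which were not.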

How the data were processed

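CUT&RUN peak lists were used for 61 of 64 samples, and the 3 IgG samples were not analysed here. Per the submitters' processing notes, the tools included Trimmomatic 0.32, Bowtie2 2.3.4.1, Picard and deepTools 3.5.1, with build mm10. Per the deposited file names, SEACR called peaks in each sample from Cast-allele reads, with normalised relaxed settings for histone marks and stringent settings without a control, at a fixed top share, for Suz12 and Ring1B. Of SEACR no version is given in the sources used here. Each peak's deposited signal (total and highest coverage) served only for ranking and filtering inside its own list. Start and end positions were used for everything else.

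Merged peaks were intersected with each gene region (2 kb flanks), and the covered percent was tested in limma 3.58.1 (R 4.3.3). The test was a moderated F-test over the 3 times with trend and robust settings, on genes with a peak in at least 3 libraries, Benjamini-Hochberg adjusted at 0.05 over all tested genes. A direction needed a contrast p under 0.05. A gene with peaks at 24 h alone could pass the filter through the time at which it was high. A base or peak counted as recurrent when at least 2 libraries held it, a rule easier to meet where there are more libraries. Python 3.11.15, pandas 2.3.3, numpy 2.4.6 and matplotlib 3.10.9 did the rest. The fit was tested on simulated data in which 200 genes were shifted by 40 points at 24 h. It recovered 137 of them for Suz12, 103 for H3K27me3, 132 for Ring1B and 110 for H2AK119Ub. False calls numbered 10, 6, 8 and 10 in this order. A gene that is not called can thus still differ by that much. Depth is unknown, so no counting intervals are given. The named genes are, per antibody, the 6 with the smallest p, the 6 with the highest mean coverage and those without any peak; others are named where a count is small and were then chosen after their values were seen. The members and lists were chosen with earlier results of these data known. Alternatives were the scaling, list length, signal floor, flanks, filter, limma settings, a replicate block and leaving out each library. The signal floor and the filter of 1 library were added after seeing the data.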

Additional observations from a re-analysis of the deposited data

Results flagged for a closer look

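In groups of 4 or 5 libraries, the most extreme value was compared with its nearest neighbour for the genes named by p-value, and 5 of 16 groups had a library far from the others, where chance gives about 1 in 20. That rate does not hold for values tied at 0% or 100%, as the other libraries were in 3 of the 5 groups, so the number of such groups is not read as an excess. Meox1 had 92.1% H3K27me3 coverage in 1 library at 24 h, and the lowest of the other 3 was 57.1%. Msx2 had 77.0% H3K27me3 coverage in 1 library at 24 h, and the highest of the others was 100%. At 0 h Irx5 had 13.8% H2AK119Ub coverage in 1 of 4 libraries and Six6 had 20.6%, both in replicate 2, and the other 3 libraries had none. At 24 h Irx5 had 49.8% H2AK119Ub coverage in replicate 4 and 100% in the other 4 libraries. Replicate 4 also had the lowest homeobox mean for H2AK119Ub at 24 h, 41.4%.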

How the results depend on the processing

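Dividing each library by its covered share of the autosomes was the setting that changed the sign of differences. On that scale the mean over the 46 genes was 14.5, 14.6 and 26.9 times the autosomal share for Suz12 at 0, 12 and 24 h, 25.7, 17.7 and 9.30 times for H3K27me3, 9.54, 7.47 and 15.6 times for Ring1B, 19.5, 9.03 and 12.2 times for H2AK119Ub, and 0.0530, 0.0259 and 0.0185 times for H3K27ac. It called 9 members for H3K27me3, 27 for H2AK119Ub, 1 for Suz12 and 1 for Ring1B. Over all tested genes the shares called were 19.8%, 38.8%, 0.00554% and 0.408% in this order. Among the genes named by p-value or coverage, the H3K27me3 difference between 24 and 0 h turned negative for Cdx1 (-3.61), Msx2 (-18.9), Nkx6-1 (-48.4) and Dlx3 (-34.0). For H2AK119Ub it did so for Nkx2-5 (-37.6), Cdx2 (-35.9), Nkx2-3 (-38.0) and Dlx1 (-37.3). Over all 45 tested members, 43 H3K27me3 differences were positive before this scaling and 10 after it. For H2AK119Ub, 32 of 37 were positive before it and 18 after it. Equal numbers of peaks per list called 3 members for H3K27me3, 1 for H2AK119Ub and 2 for Ring1B. Over all tested genes that setting called 288 of 4469, 690 of 3994 and 126 of 14830. Stricter lists, cut at each list's median signal, called 4 members for Suz12 and 6 for Ring1B, among 197 of 12547 and 235 of 12436 tested genes. Without flanks 1 member each was called for Suz12 and Ring1B, among 7 of 16079 and 51 of 15939 tested genes. The Ring1B mean at 24 h was then 46.3%. Limma without trend and robust settings also called 1 member each, among 111 of 18049 genes for Suz12 and 96 of 17641 for Ring1B. Leaving out 1 library at a time gave 5 to 37 genes for H3K27me3 and 10 to 20 for H2AK119Ub. For H3K27me3, between 4163 and 7734 of all tested genes were called when a 0 or 24 h library was left out. Same-numbered libraries did not deviate together (highest correlation 0.0819). With a replicate block 3 members were called for H3K27me3, 11 for H2AK119Ub and 0 for Suz12 and Ring1B. For H3K27me3 that setting called 4156 of 11914 tested genes. The causes of these shifts were not tested. Fits with no filter on genes could not be made for H3K27me3, H3K9me3 and H3K27ac. These values were followed gene by gene only for the genes named by p-value or coverage. Of their values under other settings, 913 kept direction and side of the threshold, 18 lost the call, 19 gained it and 8 changed sign. Depth is unknown, and a peak missing from a list is not shown to be absent from the cells.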
